A study of Mus musculus with 4 samples.

Results

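The p53 target genes examined here were 31 listed members: genes that the tumour suppressor p53 is known to switch on, and Trp53, which encodes p53 itself. Each gene was read from the probe set annotated with its symbol alone. This gave 26 members among 22180 genes measured, each of the 26 with 1 probe set. Trp53, Bax, Gdf15, Gadd45a and Ddb2 had no such probe set and were not analysed here. Gadd45a and Ddb2 lay on probe sets annotated with several gene symbols. All 26 measured members were counted as expressed, which means that the highest of their 4 values was at or over 5.98 on the log2 scale, the 40th percentile over all genes and arrays. Of all 22180 genes 14272 were expressed by the same rule. Among the members Perp alone lay under that limit, on 1 array.

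CT26, a mouse colon carcinoma line induced by a chemical carcinogen, was cultured and its RNA hybridised to 4 Affymetrix Mouse Gene 2.0 ST arrays. The DMSO group was CT26 given the solvent for 24 h, and the Senexin B group was CT26 given 5 µM Senexin B, a small-molecule inhibitor of the Mediator kinases CDK8 and CDK19, for 24 h. The pLKO.1 group was CT26 carrying that lentiviral hairpin vector, and the shCDK8 group was CT26 named for a hairpin against CDK8. The labels do not state the hairpin's sequence, how many hairpins were used, or whether these lines were pools or clones. They also give no solvent and no time for these lines. Each group had 1 array, so no difference could be tested, and every comparison is between 2 arrays whose preparation may also differ. In such bulk RNA, fewer cells that express a gene and less of its RNA per cell cannot be told apart.

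p53 is a transcription factor that is stabilised when DNA is damaged or cells are stressed. It binds response elements near its target genes and raises their transcription. The products halt the cell cycle, trigger apoptosis, repair DNA, adjust metabolism and, through Mdm2, return p53 to a low level. CDK8 belongs to the kinase module of Mediator, the complex that links transcription factors to RNA polymerase II. In human cells CDK8 has been described as a coactivator at some p53 targets, among them CDKN1A.

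Across the 4 arrays the medians of 41345 probe sets lay between 5.99 and 6.04, and any 2 arrays correlated with Pearson's r of 0.982 to 0.990 across them. The hairpin's target Cdk8 stood at 10.79 in pLKO.1 and 9.07 in shCDK8, a log2 difference of -1.72, and Cdk8 stood at 10.69 in DMSO and 10.58 with Senexin B. Vim, a mesenchymal marker, was near the top of the scale (13.81 to 13.94). Of 12 epithelial and colon markers 5 or 6 lay under the expression limit on each array. By its definition 40% of all gene values lie under that limit, so this count is near the general share. Epcam was among the markers under the limit on all arrays. Of the 7 expressed epithelial and colon markers 6 lay higher in shCDK8 than in pLKO.1, against 50.8% of all expressed genes, with a median difference of 0.14. The 1 that lay lower was the intestinal keratin gene Krt20, at 8.72 in DMSO, 8.62 in Senexin B, 8.03 in pLKO.1 and 6.59 in shCDK8. Of 9 immune markers 7 or 8 lay under the limit on each array, against 40% of all gene values. Among them was the pan-leukocyte gene Ptprc on all 4. The immune marker Cd68 went the other way, at 8.82 in DMSO, 8.93 in Senexin B, 8.88 in pLKO.1 and 9.15 in shCDK8. Cd4 lay under the limit in pLKO.1 alone, at 5.91.

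A p53 response element is built from 10-base arms that follow a shared consensus, the p53 consensus decamer, which reads the same on both strands. The decamer was looked for in the RefSeq promoter windows of GRCm38.p6, which run from 250 bases before to 50 after each annotated gene start. Of the 31 members 23 had a window, and 10 of these held a match in at least 1 of their windows. Over all 32851 windows 8.36% held a match, and over all 27025 genes 9.55% did. Perp, Tnfrsf10b, Trp53inp1, Rrm2b, Pmaip1, Xpc, Ddb2 and Zmat3 had no entry. The sequences below are the 250 bases before the start, from RefSeq, written 5′ to 3′ along the gene's strand with decamer matches in capitals. They are shown for 5 of the members that were lower with Senexin B and higher in shCDK8.
Cdkn1a (chr17:29090729-29090978, plus strand): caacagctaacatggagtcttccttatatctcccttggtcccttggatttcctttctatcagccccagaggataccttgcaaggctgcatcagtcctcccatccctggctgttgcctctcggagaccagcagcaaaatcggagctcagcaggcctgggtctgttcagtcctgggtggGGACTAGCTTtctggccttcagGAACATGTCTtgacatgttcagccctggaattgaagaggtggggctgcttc
Mdm2 (chr10:117710759-117711008, minus strand): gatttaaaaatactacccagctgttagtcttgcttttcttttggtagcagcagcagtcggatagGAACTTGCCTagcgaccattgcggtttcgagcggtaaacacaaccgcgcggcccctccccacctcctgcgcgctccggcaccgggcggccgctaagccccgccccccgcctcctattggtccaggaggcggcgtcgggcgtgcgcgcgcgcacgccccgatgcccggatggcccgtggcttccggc
Ccng1 (chr11:40755287-40755536, minus strand): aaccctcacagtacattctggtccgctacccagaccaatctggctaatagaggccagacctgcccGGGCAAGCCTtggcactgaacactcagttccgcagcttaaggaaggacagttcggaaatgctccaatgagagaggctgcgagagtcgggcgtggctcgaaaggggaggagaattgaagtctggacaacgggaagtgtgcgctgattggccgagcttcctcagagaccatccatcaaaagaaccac
Aen (chr7:78895808-78896057, plus strand): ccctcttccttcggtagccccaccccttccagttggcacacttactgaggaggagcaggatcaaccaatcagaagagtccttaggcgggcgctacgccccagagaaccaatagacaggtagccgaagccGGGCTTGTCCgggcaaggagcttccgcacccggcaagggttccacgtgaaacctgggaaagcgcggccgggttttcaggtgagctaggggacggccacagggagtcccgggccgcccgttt
Ei24 (chr9:36797335-36797584, minus strand): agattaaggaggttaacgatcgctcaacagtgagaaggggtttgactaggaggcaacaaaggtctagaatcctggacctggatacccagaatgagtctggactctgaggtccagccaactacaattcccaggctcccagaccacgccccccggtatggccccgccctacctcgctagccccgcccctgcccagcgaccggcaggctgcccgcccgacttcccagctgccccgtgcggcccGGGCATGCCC
In Cdkn1a, from the upstream of its 2 annotated starts, matches began 73 and 51 bases before the start. In Mdm2 the match began 186 bases before the start, in Ccng1 185, in Aen (the downstream start) 121 and in Ei24 10. Polk, Sesn1, Bax, Gadd45a and Trp53 also held a match. Of the 12 members with a window that were lower with Senexin B and higher in shCDK8, 6 held a match, and of the other 7 measured members with a window 1 did. A match is a description of letters. Response elements further from the start, as are known for several of these genes, lie outside these windows.

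Most p53 target genes stood higher in shCDK8 than in pLKO.1, while with Senexin B their values leaned below DMSO by less, and most of these differences were under 1.5-fold. With Senexin B the median difference from DMSO over the 26 members was -0.16 on the log2 scale, beside -0.028 over all 14272 expressed genes. In shCDK8 the median difference from pLKO.1 was 0.30, beside 0.0038 over all expressed genes. Between the controls, pLKO.1 minus DMSO, it was -0.0225, as it was for all expressed genes (-0.0225). The Senexin B median was smaller, at -0.11, when the arrays were quantile-normalized again and -0.097 when a trend of the differences with expression level was removed. The shCDK8 median was then 0.31 both times. The 26 members had 16 values below 0 with Senexin B, a share of 61.5% close to the 55.1% of all expressed genes. They had 21 values above 0 in shCDK8, a share of 80.8%, where 50.8% of all expressed genes lay above 0. The lean with Senexin B was not particular to these genes. In the lists read below, its median was -0.15 for p53 regulators and -0.18 for genes lowered through p21. For further p53 targets it was -0.0009, and for interferon reference genes 0.78.

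**Figure D1:**
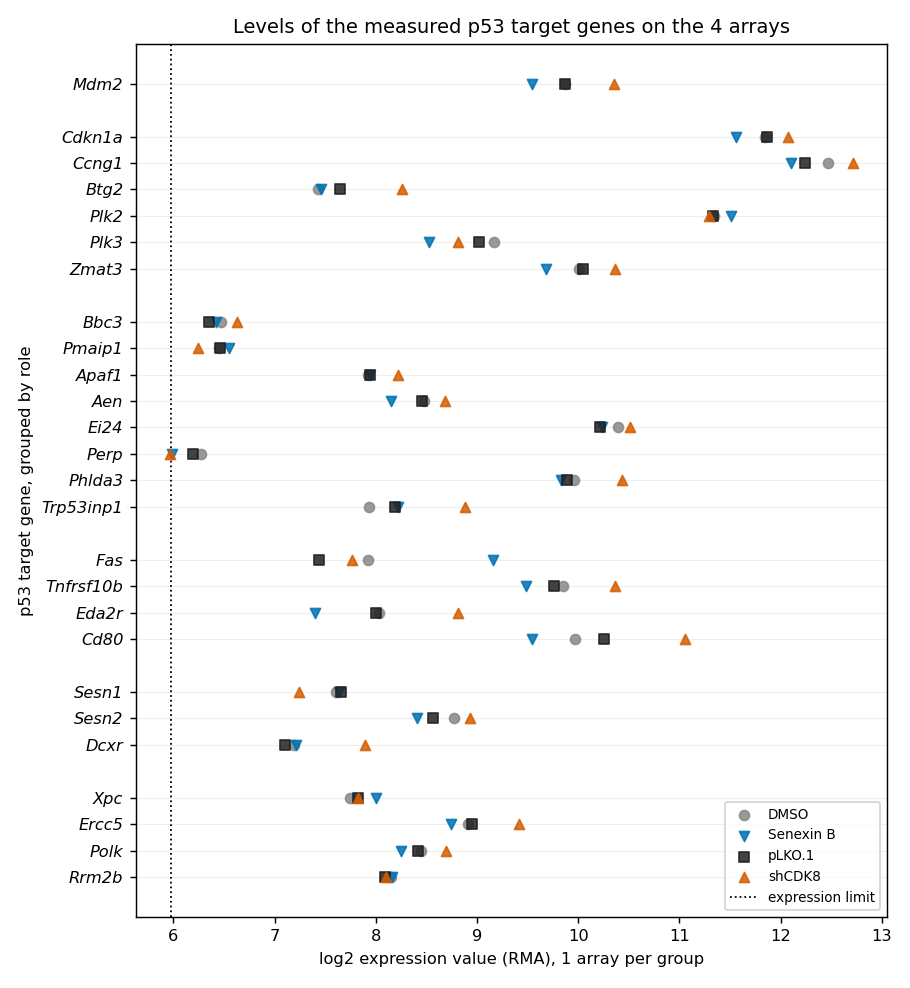
Log2 expression value (horizontal axis) of each of the 26 measured p53 target genes (rows, grouped by role) on the 4 arrays. Grey circles are DMSO, blue downward triangles Senexin B, black squares pLKO.1, orange upward triangles shCDK8, and the dotted line is the expression limit of 5.98. The orange triangle is the rightmost mark in 18 rows and the blue one the leftmost in 13.

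The log2 values ran from 5.97 for Perp in shCDK8 to 12.72 for Ccng1 in shCDK8. The lowest lies at about the expression limit, so the lower part of the arrays' range is not covered. Levels of different probe sets are not compared here, since each probe set has its own response. The shCDK8 array held the highest of the 4 values for 18 of 26 members, against 28.7% of all expressed genes. The Senexin B array held the lowest for 13 members, against 31.2% of all expressed genes. For 12 members both held, so that Senexin B was lowest, shCDK8 highest and both controls between, against 13.3% of all expressed genes. These 12 were Mdm2, Cdkn1a, Ccng1, Zmat3, Aen, Phlda3, Tnfrsf10b, Eda2r, Cd80, Sesn2, Ercc5 and Polk.

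Mdm2 encodes the ubiquitin ligase that marks p53 for degradation and is itself a p53 target. Its log2 value was 9.87 in DMSO, 9.54 in Senexin B, 9.87 in pLKO.1 and 10.35 in shCDK8. The controls lay 0.0010 apart, while Mdm2 was 1.26-fold lower with Senexin B (-0.33) and 1.39-fold higher in shCDK8 (0.48). Neither difference reached 1.5-fold, the limit used below to count genes as apart. At that value 8.38% of all expressed genes lay lower in the Senexin B comparison, and 96.65% lay lower in the shCDK8 comparison.

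Among the members that act in cell cycle arrest, Cdkn1a encodes p21, the inhibitor of cyclin-dependent kinases. Cdkn1a stood at 11.84 in DMSO, 11.56 in Senexin B, 11.86 in pLKO.1 and 12.07 in shCDK8. It was thus lowest with Senexin B (-0.28) and highest in shCDK8 (0.21), with the controls 0.021 apart. Ccng1, an atypical cyclin that acts on Mdm2 through protein phosphatase, had the same order, with differences of -0.36 and 0.47, but its controls were 0.23 apart. Zmat3, a zinc finger RNA-binding protein, stood at 10.01, 9.68, 10.05 and 10.36 in DMSO, Senexin B, pLKO.1 and shCDK8. Its differences of -0.33 and 0.31 were close to mirror images around controls 0.035 apart.

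Btg2, an antiproliferative cofactor of mRNA deadenylation, stood at 7.43 in DMSO, 7.46 in Senexin B, 7.65 in pLKO.1 and 8.26 in shCDK8. It was 1.53-fold higher in shCDK8 than in pLKO.1 (0.61) and differed by 0.028 between Senexin B and DMSO. The polo-like kinase gene Plk3 stood at 9.17 in DMSO, 8.52 in Senexin B, 9.02 in pLKO.1 and 8.82 in shCDK8. It was the lowest member of the Senexin B comparison, 1.57-fold lower (-0.65), and was also lower in shCDK8 (-0.21). Plk2, a related kinase, was 0.17 higher with Senexin B and at -0.043 in shCDK8.

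The apoptosis genes differed less with Senexin B, with a median of -0.088 over 8 members, than in shCDK8, with a median of 0.28. Bbc3, which encodes the BH3-only protein PUMA, stood at 6.47 in DMSO, 6.42 in Senexin B, 6.35 in pLKO.1 and 6.62 in shCDK8. Its Senexin B difference of -0.049 was smaller than that between the controls (-0.12), and its shCDK8 difference was 0.27. Pmaip1, which encodes NOXA, another BH3-only protein, had the opposite order, at 0.10 with Senexin B and -0.21 in shCDK8. Both genes lay near the lower end of the scale, where RMA values are compressed.

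Trp53inp1, a stress-induced protein of autophagy and apoptosis, stood at 7.93 in DMSO, 8.22 in Senexin B, 8.19 in pLKO.1 and 8.89 in shCDK8. It was 1.62-fold higher in shCDK8 (0.70), and its Senexin B difference of 0.28 was matched by one of 0.26 between the controls. Phlda3, which restrains Akt signalling, was at -0.13 and 0.54, Senexin B first. Aen, a nuclease of apoptosis, was at -0.33 and 0.23, and Ei24, a protein of the endoplasmic reticulum, at -0.16 and 0.30. Apaf1, the scaffold of the apoptosome, differed in shCDK8 (0.28) more than with Senexin B (0.026). Perp, a membrane protein of cell junctions, was lower in both comparisons (-0.28 and -0.22).

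The receptors held the largest difference of each comparison, Fas with Senexin B and Eda2r in shCDK8. Eda2r, a TNF receptor family member that binds ectodysplasin A2, stood at 8.03 in DMSO, 7.40 in Senexin B, 8.001 in pLKO.1 and 8.81 in shCDK8. It was 1.56-fold lower with Senexin B (-0.64) and 1.75-fold higher in shCDK8 (0.81), with the controls 0.032 apart. Eda2r was the single member past 1.5-fold in both comparisons, and the shCDK8 value was the highest of all members.

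Cd80, the ligand of the T cell receptors CD28 and CTLA-4, stood at 9.97 in DMSO, 9.54 in Senexin B, 10.26 in pLKO.1 and 11.06 in shCDK8. It was 1.34-fold lower with Senexin B (-0.43) and 1.74-fold higher in shCDK8 (0.80), but its controls also differed by 0.29. Tnfrsf10b, the mouse receptor for the death ligand TRAIL, stood at 9.85 in DMSO, 9.49 in Senexin B, 9.76 in pLKO.1 and 10.36 in shCDK8. It was 1.28-fold lower with Senexin B (-0.36) and 1.51-fold higher in shCDK8 (0.60). For Cd80 and Tnfrsf10b too, both controls lay between the other arrays.

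Fas, the death receptor for Fas ligand, went the other way with Senexin B. It stood at 7.92 in DMSO, 9.16 in Senexin B, 7.44 in pLKO.1 and 7.77 in shCDK8. The Senexin B value was 2.35-fold higher than DMSO (1.23) and 3.29-fold higher than pLKO.1. Fas was the only member at least 2-fold higher with Senexin B than in DMSO, against 0.687% of all expressed genes. The shCDK8 value was 0.33 higher than pLKO.1 but 0.16 below DMSO, and the controls differed by -0.49. Fas is also known as an interferon-inducible gene. Of 15 expressed interferon reference genes all lay above 0 with Senexin B, against 44.8% of all expressed genes, with a median of 0.78, but their median was 0.56 between the controls, where Fas was lower. In shCDK8, where Fas was higher, their median was -0.58, but against DMSO both turned, with the interferon median at 0.12 and Fas, as above, lower. The part of these genes' signal in the Fas value was not tested.

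**Figure D2:**
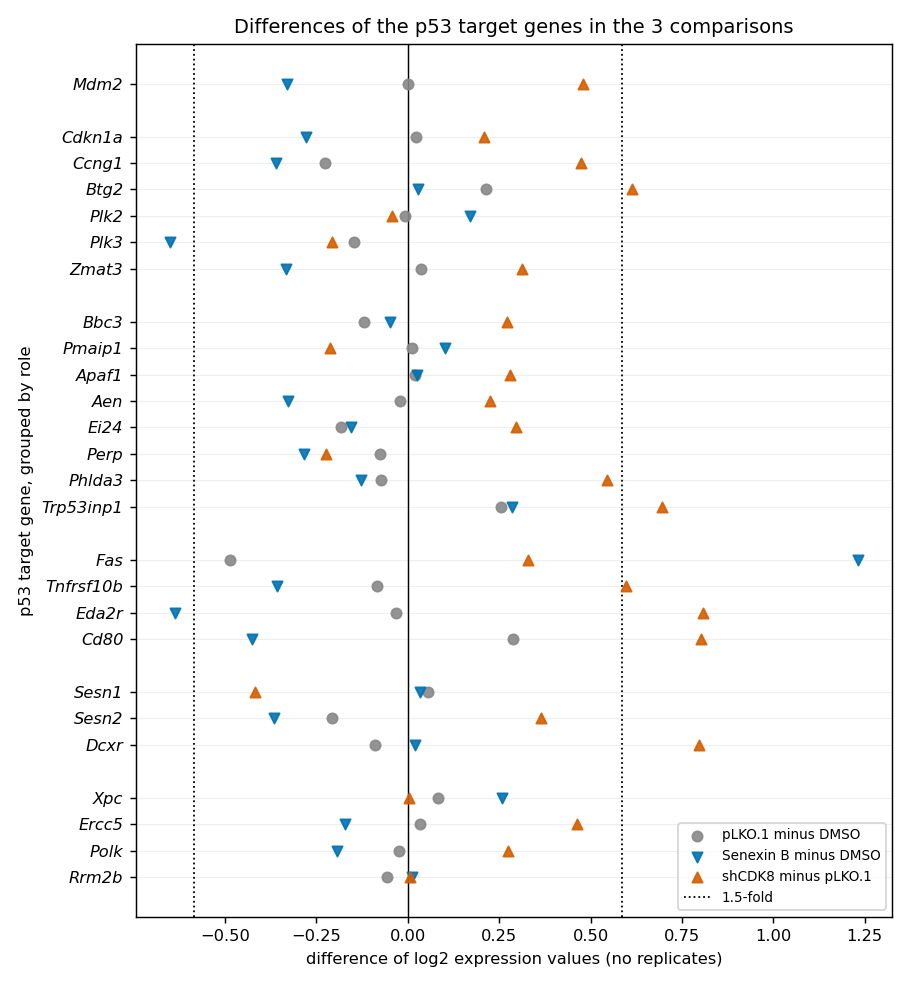
Difference of log2 expression values (horizontal axis) of each p53 target gene in the 3 comparisons. Blue downward triangles are Senexin B minus DMSO, orange upward triangles shCDK8 minus pLKO.1, grey circles pLKO.1 minus DMSO, and dotted lines mark 1.5-fold. Orange lies right of 0 in 21 of 26 rows, blue left of 0 in 16, and no grey circle reaches 1.5-fold.

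Of the stress and metabolism members, Dcxr, a reductase of dicarbonyls and L-xylulose, stood at 7.19 in DMSO, 7.21 in Senexin B, 7.10 in pLKO.1 and 7.90 in shCDK8. It was 1.74-fold higher in shCDK8 (0.80), while the other 3 arrays lay close together. The sestrins, which restrain mTORC1, parted from each other. Sesn2 was at -0.37 with Senexin B and 0.37 in shCDK8, with controls 0.21 apart. Sesn1 was at 0.033 with Senexin B and was the lowest member of the shCDK8 comparison, at -0.42.

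The DNA repair members had medians of -0.079 with Senexin B and 0.14 in shCDK8. Ercc5, which encodes the excision repair nuclease XPG, was at -0.17 with Senexin B and 0.46 in shCDK8. Polk, a polymerase that copies past damaged bases, was at -0.19 and 0.27. Xpc, the damage sensor of excision repair, was 0.26 higher with Senexin B and differed by 0.0044 in shCDK8. Rrm2b, the p53-inducible subunit of ribonucleotide reductase, differed by 0.013 and 0.0052.

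Counted at 1.5-fold, 6 of 26 members were higher in shCDK8 (Eda2r, Cd80, Dcxr, Trp53inp1, Btg2 and Tnfrsf10b), where 1.67% of all expressed genes were, and 0 were lower, where 1.85% of all expressed genes were. With Senexin B 2 members were lower (Plk3 and Eda2r), against 1.65% of all expressed genes (1 after removal of that trend, with Plk3 at -0.56), and 1 was higher (Fas), against 2.35%. Between the controls 0 members were higher and 0 lower, against 0.603% and 0.434%. With 1 array per group these counts carry no p-value.

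The 2 comparisons share no array, so their signs can be set beside each other. Lower with Senexin B and higher in shCDK8 were 14 of 26 members, against 26.7% of all expressed genes. The reverse held for 3 members (Plk2, Pmaip1 and Sesn1), against 20.7%. A further 7 members were above 0 in both, against 24.1%, and 2 (Plk3 and Perp) were below 0 in both, against 28.4%. Taken singly, 61.5% of the members were lower with Senexin B, against 55.1% of all expressed genes. Higher in shCDK8 were 80.8%, against 50.8%. The count of 14 largely restates these single shares, so no opposite pattern beyond them is read from it. The joint signs were also counted in the other lists. Of 52 further p53 targets 16 were lower with Senexin B and higher in shCDK8 (30.8%), and of 25 regulators of p53 10 were. Of 15 genes that are lowered through p21 8 were (53.3%), where 86.7% were lower with Senexin B and 66.7% higher in shCDK8. Read against the other control arrays, as below, the counts of 16, 10 and 8 became 18, 7 and 2. The sizes did not mirror each other gene by gene: Pearson's r between the differences was -0.12 across the 26 members and 0.0078 across all expressed genes, which are not independent points.

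**Figure D3:**
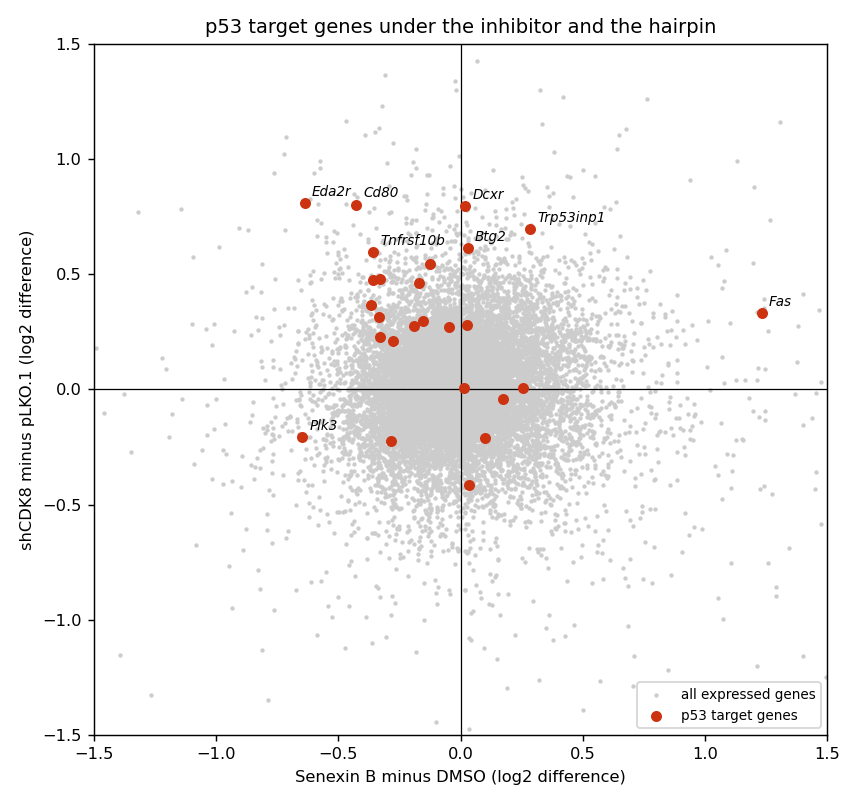
Senexin B minus DMSO (horizontal) against shCDK8 minus pLKO.1 (vertical), as log2 differences. Grey points are the expressed genes inside the plotted range of 1.5 in each direction (51 lie outside) and red points are the 26 p53 target genes, named where 1.5-fold apart in either comparison. The upper left field holds 14 red points, and Fas stands alone at the right.

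Each comparison was also read against the other control array. Such readings also hold any difference of vector, solvent or culture time, since the labels give no solvent or time for the pLKO.1 and shCDK8 lines. For Senexin B minus pLKO.1 the median of the members was -0.15, and for shCDK8 minus DMSO it was 0.24, beside -0.0009 and -0.013 for all expressed genes. Lower and higher in that order were then 13 members, against 24.4% of all expressed genes. Past 1.5-fold lower were again 2, against 1.86%, but they were Eda2r (-0.61) and Cd80 (-0.71), while Plk3 was at -0.50. Past 1.5-fold higher with Senexin B was 1, Fas, against 2.59%. Past 1.5-fold higher in shCDK8 were 5, against 2.21%, with Tnfrsf10b at 0.51, and Cd80 at 1.09 was then 2.13-fold higher. Past 1.5-fold whichever control was used were Eda2r and Fas for Senexin B, and Btg2, Trp53inp1, Eda2r, Cd80 and Dcxr for shCDK8. The share of all expressed genes past 1.5-fold against both controls was not counted.

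**Figure D4:**
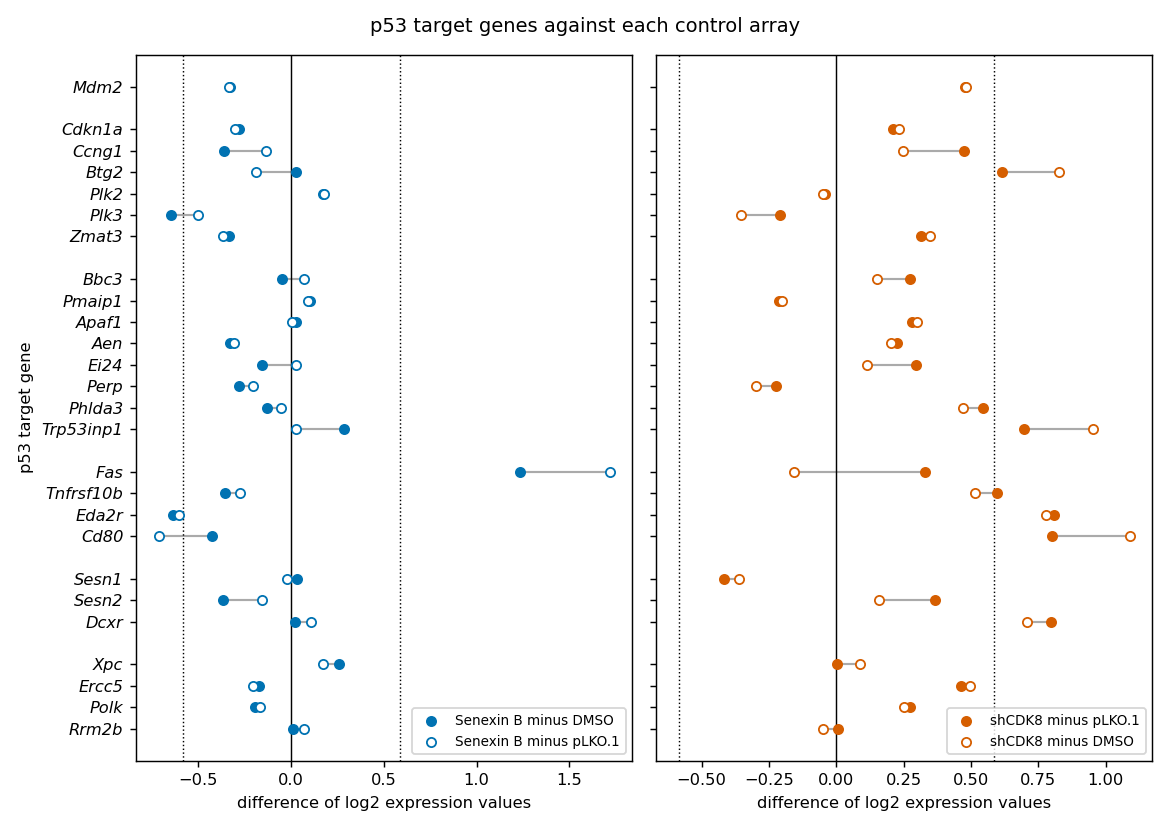
Difference of log2 expression values of each p53 target gene for Senexin B (left) and shCDK8 (right). Filled circles use the comparison's own control, open circles the other control array, a grey line joins the pair, and dotted lines mark 1.5-fold. The pairs of Mdm2, Cdkn1a and Eda2r nearly coincide, whereas Fas in shCDK8 lies at 0.33 or -0.16.

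Genes that act on p53 were read from a list of 25 regulators, all of them expressed. None was 1.5-fold apart in either comparison. Of all expressed genes 2.35% were as much higher and 1.65% as much lower with Senexin B, and 1.67% and 1.85% in shCDK8. At such shares a list of 25 holds few or none, so no reading is made of this. With Senexin B 20 of 25 lay below 0, against 55.1% of all expressed genes, with a median of -0.15, and between the controls 19 did, against 55.6% of all expressed genes, with a median of -0.056. In the Senexin B comparison Rchy1, a ubiquitin ligase for p53, was at -0.39, and Huwe1, another, at -0.36, while the p53 kinase Hipk2 was at 0.38. The p53 relative Trp63 was at 0.41 there. Its level passed the expression limit of 5.98 on the Senexin B array alone, at 6.245 beside 5.83 in DMSO. In shCDK8 the median was 0.012. Mdm4, the partner of Mdm2 that blocks p53, was the highest at 0.31 and differed by -0.016 with Senexin B. The damage kinase gene Atm was at -0.30 in shCDK8 and -0.36 with Senexin B. The acetyltransferase gene Ep300 was at -0.29 and the checkpoint kinase gene Chek1 at -0.27 in shCDK8. Ppm1d, a phosphatase that is itself a p53 target, differed by -0.034 and -0.010, and Cdkn2a, whose ARF product inhibits Mdm2, by -0.051 and 0.12. Between the controls Chek2 was at -0.43, Rpl11 at 0.24, Cdkn2a at -0.23 and Ep300 at 0.22.

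A second list held 58 further genes reported as p53 targets, of which 54 were measured and 52 expressed. In shCDK8 36 of the 52 lay above 0, against 50.8% of all expressed genes, with a median of 0.17. At least 1.5-fold higher were 6, against 1.67%, and as much lower 0, against 1.85%. The highest were Pltp, a phospholipid transfer protein (1.13), Trp53i11 (0.83), the microtubule-associated Psrc1 (0.77) and the adenylate kinase gene Ak1 (0.70). With Senexin B the 52 were split evenly, with 26 above 0, against 44.8% of all expressed genes, and a median of -0.0009. The transcription factor gene Klf4 was 1.21 higher and Thbs1, which encodes thrombospondin, 0.74 higher, while the growth factor gene Tgfa was at -1.06 and the ERK phosphatase gene Dusp5 at -0.99. Dusp5 was 0.62 higher in shCDK8, and Pltp was 0.68 higher with Senexin B. Between the controls the median was 0.0018, with Tgfa at -0.48, the noncoding RNA gene Pvt1 at 0.42, Sfn at -0.34 and Tap1 at 0.32.

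p21 lowers many cell cycle genes through the DREAM repressor complex, and 15 expressed genes of that kind were read. With Senexin B 13 of 15 lay below 0, against 55.1% of all expressed genes, with a median of -0.18. Between the controls 14 did, against 55.6%, with a median of -0.15. In the Senexin B comparison Mybl2 was at -0.48 and the mitotic kinase genes Cdk1 and Plk1 at -0.32 and -0.26, with the kinesin gene Kif23 at -0.30. In shCDK8 10 of 15 lay above 0, against 50.8% of all expressed genes, with a median of 0.088 and Ccnb2 at 0.36, while Mybl2 was at -0.20 and Foxm1 at -0.19 and Bub1 at 0.19. None of the 15 was 1.5-fold apart in any of the 3 differences. Of all expressed genes only 0.434% to 2.35% were so in each direction and comparison, so no reading is made of this. Between the controls Cks2 was at -0.37, Ccna2 at -0.29, Mybl2 at -0.24 and Cdc20 at -0.22.

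Markers of fibroblasts and mesenchymal cells also differed, some of them in opposite directions and further than any p53 target gene. Of 8 fibroblast markers 7 were expressed and 1 or 2 lay under the limit on each array, against 40% of all gene values. With Senexin B 6 of the 7 lay above 0, against 44.8% of all expressed genes, with a median of 0.23. In shCDK8 2 lay above 0, against 50.8%, and 5 below 0, with a median of -0.34. Between the controls 2 lay below 0, against 55.6%, and 5 above 0, with a median of 0.11. The matrix proteoglycan gene Dcn was at 2.29 with Senexin B and -0.82 in shCDK8, with 0.58 between the controls. The collagen gene Col3a1 was at 0.57 and -1.27, and the growth factor receptor gene Pdgfra at 1.24 and 0.39. Fap was lower in both comparisons (-0.46 and -0.94), though under the limit on 3 arrays, and Thy1 was higher in both (0.21 and 0.30). The 7 mesenchymal markers measured had medians of -0.0088 with Senexin B, -0.22 in shCDK8 and -0.051 between the controls. Among them the receptor gene Pdgfrb was at 1.49 with Senexin B and -1.25 in shCDK8, and Acta2, which encodes an actin of smooth muscle, at 0.55 and 0.93. These markers were named with their values in view, and their part in the values of the p53 target genes was not tested.

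**Figure D5:**
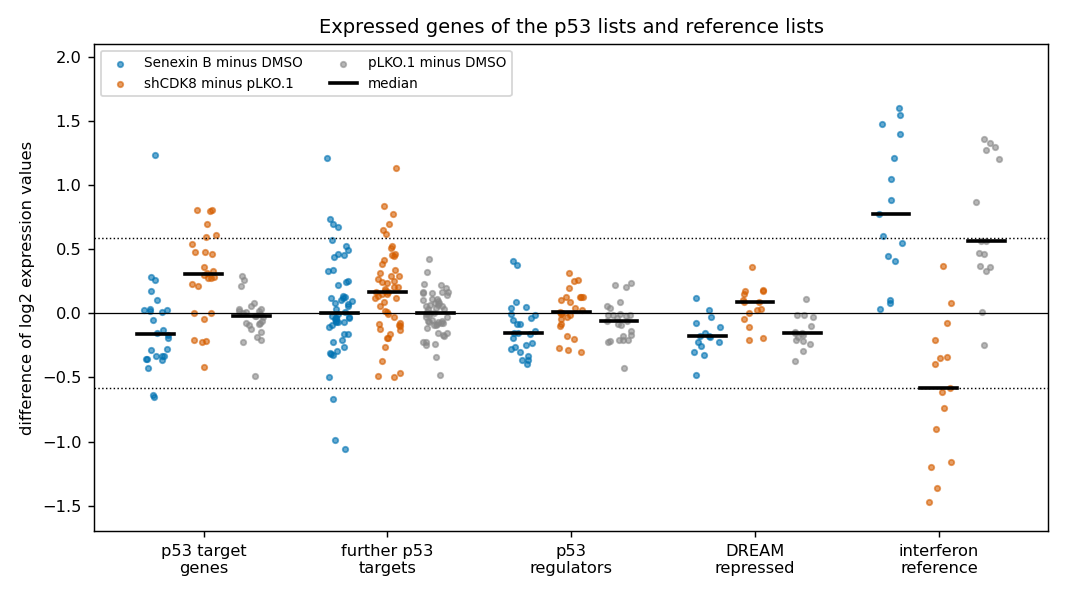
Difference of log2 expression values (vertical axis) of the expressed genes of 5 lists. Each point is a gene, in blue for Senexin B minus DMSO, orange for shCDK8 minus pLKO.1 and grey for pLKO.1 minus DMSO, black bars are medians and dotted lines mark 1.5-fold. The medians of the p53 target genes are -0.16, 0.30 and -0.0225, and those of the interferon reference genes 0.78, -0.58 and 0.56.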

How the data were processed

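Total RNA of 4 CT26 cultures was measured on 1 Affymetrix Mouse Gene 2.0 ST array each, per the series design text. The authors deposited log2 values, 1 per probe set, made with RMA and Affymetrix Expression Console per the submitters' processing notes. Versions, settings and joint normalization are not stated in the sources used here. RMA removes shifts common to all genes and compresses low values.

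Of 41345 probe sets 23521 had 1 gene symbol, 1814 several and 16010 none in the platform annotation. The probe set with the highest mean was kept per gene. Differences were taken between log2 values of 2 arrays, with no test, since each group has 1 array, and their number limits the precision. The members, the other lists and the naming rule (all members, and up to 4 genes per other list and comparison, beside Mdm4, Ppm1d and Cdkn2a) were chosen with earlier results of these data known. The lists were p53 regulators, further p53 targets, DREAM-repressed genes, interferon reference genes, and epithelial, mesenchymal, immune, endothelial and fibroblast markers. Endothelial markers lay between 5.17 and 6.16 on all arrays. Python 3.11.15, pandas 2.3.3 and statsmodels 0.14.6 were used, and the computation was tested on simulated data. The alternatives were other expression filters, rescalings, probe set rules and fold limits, a floor, means, and the other control array.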

Additional observations from a re-analysis of the deposited data

How the results depend on the processing

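No paired analysis was possible because each group has 1 array, and for the same reason no replicate could be left out. The Senexin B and shCDK8 medians of the 26 p53 target genes kept their sign and moved by less than 0.1 under all alternatives run, from -0.17 to -0.097 and from 0.24 to 0.33. The median between the controls, near 0, turned to 0.0088 after quantile normalization and 0.0056 after removal of the trend. The alternatives were no filter, a filter at the 60th percentile (23 members), removal of a lowess trend, quantile normalization run again, centring on all expressed genes, the mean of probe sets, values raised to the 40th percentile, the mean over members and the other control array. The members lower with Senexin B and higher in shCDK8 numbered 13 to 14 under those settings. Leaving out the filter and taking the mean of probe sets could not change these results. All 26 members were expressed and had 1 probe set each. Raising low values touched Perp alone, on 1 array. The members 1.5-fold lower with Senexin B were 1 in place of 2 after removal of the trend, with Plk3 at -0.56 and Eda2r at -0.60. At 2-fold 0 members were lower with Senexin B and 0 higher in shCDK8, since a stricter limit counts fewer genes. The shares of all expressed genes past 2-fold in these directions are not given here, so no reading is made of the 0 counts. Read against the other control array, the interferon reference median in shCDK8 turned to 0.12, with Usp18 at 0.47, Oasl2 at 0.20 and Irf7 at 0.13, and Irf7 with Senexin B turned to -0.12. The cause was not tested. Of 134 single-gene differences read that way 107 kept their sign, 51 of them moving by at least 0.1, and 27 changed it, 8 of them with both values at least 0.1 from 0. Of 52 differences of p53 target genes 6 changed sign, those of Bbc3, Btg2, Ei24 and Sesn1 with Senexin B and of Fas and Rrm2b in shCDK8, and of these Fas alone had both values at least 0.1 from 0. With 1 array per group and signal over background not used here, differences of low genes such as Perp, Bbc3 and Pmaip1 are the least certain.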

Other observations

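Across all 14272 expressed genes, 18 were at least 1.5-fold lower with Senexin B and at least 1.5-fold higher in shCDK8, and 41 were apart the other way round. Eda2r was the single p53 target gene of the 26 among the 18, and Dusp5 the single one of the further targets. The genes named next were picked with their values in view. The sodium pump subunit gene Atp1b1 led the 18 by the sum of both differences, at -1.86 and 1.80, followed by the proteoglycan gene Esm1 at -2.10 and 0.97. Taf9b, a subunit related to those of the general transcription factor TFIID, was at -1.32 and 0.77. The ERK pathway inhibitor gene Spry2 was at -0.59 and 0.81, and the phagocytic receptor gene Mertk at -0.87 and 0.69. Atp1b1 also differed by -0.61 between the controls, whereas Mertk differed by -0.0036 and Eda2r by -0.032.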
